A study of Homo sapiens with 8 samples.

Results

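Antisense long noncoding RNAs (lncRNAs) are transcripts of no known protein product that are read from the DNA strand opposite a gene, which then lends them its name. Expressed members of this class were taken as genes with the GENCODE biotype lncRNA, a symbol ending in -AS with or without digits, ZFAS1 and EPB41L4A-AS1 left out, and a mean of at least 1 CPM (counts scaled to a common library total) over the 8 libraries. This gave 248 RNAs out of 1839 antisense lncRNAs in the annotation, of which 972 had at least 1 read, and out of 69215 genes listed in all. The RNAs were thus chosen by their mean CPM in these same libraries, and their levels are given as a description. Just inside the limit were CARD8-AS1 at 1.003, INO80D-AS1 at 1.007 and TSC22D1-AS1 at 1.016 CPM, and just outside it were ELOA-AS1 at 0.9995, BCDIN3D-AS1 at 0.9988 and RNF213-AS1 at 0.9986 CPM.

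RNA was sequenced from G401, an established rhabdoid tumor line of the kidney that has lost SMARCB1, a core subunit of the mSWI/SNF chromatin remodeling complexes. A Tet-On construct let doxycycline (Dox) switch on SMARCB1 in one derivative of the line and GFP, a protein foreign to the cell, in the other. Each derivative received 0.1 µg/ml Dox or the solvent DMSO for 12 h, which made 4 groups of 2 libraries, named by transgene and treatment (SMARCB1 Dox, GFP DMSO and so on). The derivatives carry different constructs, so effects of construct and of derivation cannot be told apart where the lines are compared. Plates of 1 condition were pooled before extraction, and no label ties a replicate to a separate culture, so the p-values measure a spread between libraries that may be technical.

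Antisense transcripts often begin near the promoter of the gene they are named for and are transcribed away from it or across it. Some act in cis, by transcription through the locus or by recruiting chromatin regulators, and others act in trans as RNAs that bind proteins or microRNAs, while for most no function is known. Chromatin remodelers of the SWI/SNF family bind promoters and enhancers, where much noncoding transcription starts.

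Gene counts were between 29632090 and 37597477 per library, and 3 reads corresponded to 0.0798 to 0.101 CPM, a floor that covers counting error only. Mitochondrial transcripts took 18.9% to 27.9% of the gene counts, most in SMARCB1 DMSO replicate 1, and the antisense lncRNAs together took 0.199% to 0.232%. SMARCB1 itself had 10 and 21 reads before Dox and 30474 and 29383 after it in its inducible line, and 0 in all 4 GFP libraries. This matched the labels of the SMARCB1 line, but cannot tell GFP Dox from GFP DMSO, and GFP was not measured here.

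Of the 248 RNAs, 194 shared at least 1 exon base with the protein-coding gene of their name on the other strand (exonic overlap). Another 26 overlapped that gene without sharing exon bases (intronic overlap). A further 19 were divergent, starting head to head with it within 5000 bases and without overlap. RNAs that start head to head with their partner but overlap it are in the overlap classes. The remaining 9 comprised 6 with no protein-coding gene of that name, among them HOXB-AS3 and CCDC144NL-AS1, and 3 placed otherwise, of which PYDC2-AS1 and FAM131B-AS2 lay on the same strand as the gene of their name. The nearest annotated starts of RNA and partner were within 1000 bases in 158 cases and within 100 bases in 84. The median exon overlap with any gene on the other strand was 8.33% of the RNA, with 33 RNAs free of such overlap and 14 above 50%.

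The strand setting of the count was not stated, so reads of an antisense RNA that overlap an opposite exon could be missing from its count. The counts do not settle whether strand was used. Of 845 genes that lay at least 99% within exons of the other strand and shared none on their own, 254 had a covering gene of 8000 reads or more, and of these 156 had 0 reads, 223 at most 8 in all libraries together and 8 more than 80. Counting without strand would also give such genes almost no reads, since reads shared by overlapping exons are assigned to neither gene. Values of RNAs with large opposite exon overlap, and of the 37 that share exon bases with another gene on their own strand, are uncertain for this reason. Counting without strand could also add unspliced reads of a gene to an RNA whose exons lie in the introns of that gene. The absence of opposite exon overlap, as in the 26 RNAs with intronic overlap of their partner, therefore does not remove the doubt.

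The promoters shown here belong to antisense RNAs on which the comparisons below turn, and to POC1B, which has a start 1 base from that of POC1B-AS1. Each runs from 250 bases before to 50 after the RefSeq start, read 5′ to 3′ on the strand of the gene (GRCh38.p14), and capitals mark CG dinucleotides. ID2-AS1 is at chr2:8681814-8682113 (minus), SVIL-AS1 at chr10:29409284-29409583 (plus), DLGAP1-AS1 at chr18:3593864-3594163 (plus), SLC25A21-AS1 at chr14:37171776-37172075 (plus), CARD8-AS1 at chr19:48255425-48255724 (plus) and POC1B at chr12:89525998-89526297 (minus).
ID2-AS1: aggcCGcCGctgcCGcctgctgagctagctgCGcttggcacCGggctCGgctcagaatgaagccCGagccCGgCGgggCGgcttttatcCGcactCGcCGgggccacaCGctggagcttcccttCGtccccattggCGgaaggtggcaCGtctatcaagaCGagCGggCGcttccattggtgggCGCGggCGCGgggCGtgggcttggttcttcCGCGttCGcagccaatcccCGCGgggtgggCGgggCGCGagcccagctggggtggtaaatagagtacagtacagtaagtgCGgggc
SVIL-AS1: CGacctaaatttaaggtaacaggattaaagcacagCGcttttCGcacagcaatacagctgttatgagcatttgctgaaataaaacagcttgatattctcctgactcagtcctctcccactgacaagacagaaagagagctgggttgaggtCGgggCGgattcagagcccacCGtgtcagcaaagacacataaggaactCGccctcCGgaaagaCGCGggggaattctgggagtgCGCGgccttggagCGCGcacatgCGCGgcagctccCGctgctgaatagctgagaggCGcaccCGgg
DLGAP1-AS1: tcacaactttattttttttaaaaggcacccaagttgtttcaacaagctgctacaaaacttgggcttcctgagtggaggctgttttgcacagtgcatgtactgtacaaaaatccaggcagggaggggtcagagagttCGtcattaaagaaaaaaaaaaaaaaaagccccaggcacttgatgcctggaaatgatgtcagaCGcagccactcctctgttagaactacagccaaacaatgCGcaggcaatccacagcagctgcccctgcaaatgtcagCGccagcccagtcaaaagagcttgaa
SLC25A21-AS1: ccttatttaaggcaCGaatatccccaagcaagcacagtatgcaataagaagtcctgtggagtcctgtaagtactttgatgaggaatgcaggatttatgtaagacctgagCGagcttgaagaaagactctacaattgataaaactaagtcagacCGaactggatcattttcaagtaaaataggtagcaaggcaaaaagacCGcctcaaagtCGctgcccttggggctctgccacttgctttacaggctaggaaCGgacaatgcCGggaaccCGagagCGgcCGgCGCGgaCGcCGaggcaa
CARD8-AS1: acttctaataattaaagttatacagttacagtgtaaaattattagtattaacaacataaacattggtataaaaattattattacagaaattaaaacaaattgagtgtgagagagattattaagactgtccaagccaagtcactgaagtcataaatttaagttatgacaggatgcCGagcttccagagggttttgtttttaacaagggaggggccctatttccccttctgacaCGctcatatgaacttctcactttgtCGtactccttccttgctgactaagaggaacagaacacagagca
POC1B: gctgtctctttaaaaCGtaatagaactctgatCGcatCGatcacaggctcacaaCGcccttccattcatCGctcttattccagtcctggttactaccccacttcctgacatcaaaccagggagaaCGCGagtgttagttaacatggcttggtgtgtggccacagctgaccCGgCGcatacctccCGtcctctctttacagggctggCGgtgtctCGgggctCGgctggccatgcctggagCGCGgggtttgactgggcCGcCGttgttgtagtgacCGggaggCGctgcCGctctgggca

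These promoters differed widely in CG content, from 34 CG dinucleotides in ID2-AS1, whose start lies 8 bases from one of ID2, to 4 in DLGAP1-AS1 and 3 in CARD8-AS1. SVIL-AS1 held 19, SLC25A21-AS1 14 and POC1B 20. RefSeq gave a promoter for 189 of the 248 RNAs, with a median of 25 CG dinucleotides against 14 over 27305 genes of the table. Those genes were taken whether expressed here or not, and no set matched in expression was compared. The median was 27 where the nearest starts lay within 1000 bases and 23 where they lay farther apart.

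A pair of motifs was searched, each of which reads alike on both strands. A match is a description of the letters only. TGANTCA, the core bound by AP-1 factors, was found in 6.35% of the antisense promoters and in 7.76% of all promoters of the same length, and SVIL-AS1 was the only one of the 6 shown to hold it. CACGTG, the E-box bound by MYC and related factors, was found in 12.7% and 7.43%. This motif itself holds a CG, and no set matched in CG content was compared. Among the 27 promoters of RNAs that fell with SMARCB1, 2 held TGANTCA and 3 held CACGTG.

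By share of reads, the leading RNAs were OIP5-AS1, a regulator of the stability of other RNAs, FGD5-AS1, SVIL-AS1, LCMT1-AS2, NUTM2A-AS1, SBF2-AS1, TM4SF18-AS1 and ZNF667-AS1. In SMARCB1 DMSO libraries OIP5-AS1 had 280 and 253 CPM, with Dox 271 and 275, while the GFP line had 251 and 233 before and 236 and 232 after Dox. The RNA was called in none of the comparisons. Per kb of exon the order was different, with TM4SF18-AS1 at a mean of 82.0 CPM per kb, FGD5-AS1 at 34.2 and OIP5-AS1 at 11.3. The median RNA had 3.08 CPM, and 52 had 10 CPM or more. Per kb of exon, 67 RNAs lay above their partner, among them TM4SF18-AS1, whose partner TM4SF18 had 3.93 CPM per kb.

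To ask what SMARCB1 re-expression did to these RNAs, SMARCB1 Dox was compared with SMARCB1 DMSO. Most antisense lncRNAs were not called, and of the 45 that were, 38 fell and 7 rose at a Benjamini-Hochberg adjusted p under 0.05 in edgeR's quasi-likelihood test. Those called were 18.1% of the 248, where 14% of all 15931 genes tested were called, 8.33% higher and 5.69% lower. The median log2 fold change was −0.14 for the antisense RNAs and −0.004 over all genes. The 823 other lncRNAs at 1 CPM or more also had a median of −0.14, with 17 higher and 63 lower, whereas the 11097 protein-coding genes at that level had a median of 0.005, with 1159 higher and 768 lower. All 248 passed the expression filter, and of the 208 at 1 CPM or more in every group, 5 rose and 34 fell. In bulk RNA, fewer cells with a transcript and less of it per cell cannot be told apart.

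**Figure D1:**
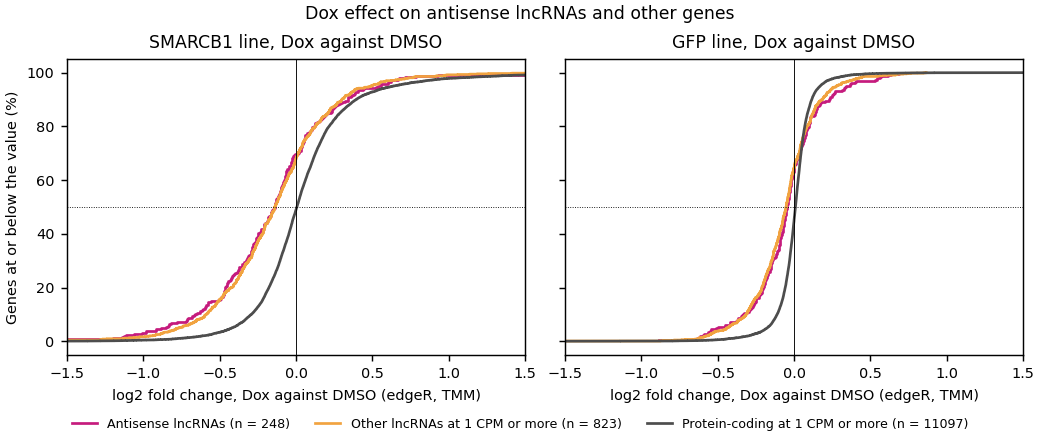
Cumulative share of genes (percent) against the log2 fold change of Dox over DMSO in the SMARCB1 line (left) and the GFP line (right), for 248 antisense lncRNAs, 823 other lncRNAs and 11097 protein-coding genes; values beyond 1.5 on either side lie outside the panels. In the left panel both lncRNA curves lie left of the protein-coding curve, with medians of −0.14, −0.14 and 0.005.

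Scaling by library totals moved the median of all genes to 0.09 and that of the antisense RNAs to −0.05. It left 27 lower and 11 higher, so the excess of lower calls was kept but smaller. The count rested in part on single libraries, being 22 without SMARCB1 Dox replicate 1 and 25 without SMARCB1 DMSO replicate 1. The latter library also had the highest mitochondrial share, 27.9% against 23.9% in its replicate and 22.9% and 21.3% in SMARCB1 Dox, and the part of this in the result was not tested.

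The RNA with the largest fall was DLGAP1-AS3 (chr18:3878058-3897069, plus strand), which lies within DLGAP1, the gene of a postsynaptic scaffold protein. It had 11.7 and 13.8 CPM in SMARCB1 DMSO and 1.97 and 3.66 in SMARCB1 Dox. Both Dox libraries were far below both DMSO libraries. The log2 fold change was −2.18 ± 0.19 (SE, edgeR adjusted p = 7.05e-08). In the GFP line it had 17.4 and 19.3 CPM with DMSO and 17.3 and 18.5 with Dox, which overlapped.

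Other antisense RNAs of the same locus differed in size of change. DLGAP1-AS1 went from 10.3 and 8.25 to 4.80 and 4.55 CPM, a log2 fold change of −0.98 ± 0.16 (SE, edgeR adjusted p = 0.000139). DLGAP1-AS2, at −0.28 ± 0.13, and DLGAP1-AS4, at −0.67 ± 0.31, did not pass (edgeR adjusted p = 0.172 and 0.166). DLGAP1 itself had means of 24.5 and 26.2 CPM, a log2 fold change of 0.10 that was not called (edgeR adjusted p = 0.61). The difference between these RNAs was not tested.

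POC1B-AS1, which starts beside the centriole gene POC1B, went from 3.74 and 3.25 to 1.18 and 1.23 CPM. Its libraries did not overlap, and the log2 fold change was −1.53 ± 0.24 (SE, edgeR adjusted p = 0.000106). POC1B was not called, at −0.17. EIF1B-AS1, divergent from the translation initiation factor gene EIF1B with starts 9 bases apart, had 1.48 and 2.03 against 0.646 and 0.887 CPM (edgeR adjusted p = 0.0188), and EIF1B was not called, at −0.11. EIF1B-AS1 lost its call without SMARCB1 DMSO replicate 2 (edgeR adjusted p = 0.161) or SMARCB1 Dox replicate 1 (0.171).

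SVIL-AS1, antisense to the gene of the actin-binding protein supervillin, was among the RNAs with most reads. It had 115 and 103 CPM in SMARCB1 DMSO and 69.3 and 69.4 in SMARCB1 Dox, a log2 fold change of −0.65 ± 0.08 (SE, edgeR adjusted p = 9.51e-06). TM4SF18-AS1 went from 41.5 and 39.7 to 22.7 and 23.2 CPM, or −0.82 ± 0.09 (edgeR adjusted p = 2.12e-06). In both, the Dox libraries agreed closely and lay below the DMSO libraries.

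C10orf95-AS1 went from 22.7 and 19.7 to 12.5 and 13.4 CPM (−0.71 ± 0.12, edgeR adjusted p = 0.000201), and ID2-AS1 from 7.41 and 9.04 to 3.60 and 5.52 CPM (−0.85 ± 0.17, edgeR adjusted p = 0.00135). NR2F1-AS1, beside a nuclear receptor gene, went from 35.0 and 41.9 to 22.3 and 27.5 CPM (−0.63 ± 0.11, edgeR adjusted p = 0.000416). In the GFP line NR2F1-AS1 had 26.3 and 26.0 CPM with DMSO and 24.0 and 22.6 with Dox, near its level in SMARCB1 Dox. The difference between its Dox effects was not called (edgeR adjusted p = 0.113). In none of these RNAs did the groups of the SMARCB1 line overlap, although the Dox libraries of ID2-AS1 lay well apart. They belong to the 11 RNAs called in each of the 8 fits that left out 1 library, with CARD8-AS1, DLGAP1-AS1, DLGAP1-AS3, GAS6-AS1, LCMT1-AS2, POC1B-AS1, SVIL-AS1 and TM4SF18-AS1.

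TMEM51-AS1, CCDC18-AS1, RBMS3-AS3, PANK2-AS1 and SLC25A25-AS1 were also among the 10 largest falls, with log2 fold changes of −1.14, −1.11, −1.01, −0.98 and −0.88 at edgeR adjusted p between 0.00325 and 0.0336. Most of these lay near or below 3 CPM in the SMARCB1 line, and each lost its call without at least 1 library. RBMS3-AS3 was at −0.66 without SMARCB1 Dox replicate 1 (edgeR adjusted p = 0.328), SLC25A25-AS1 at −0.63 without SMARCB1 Dox replicate 2 (0.158), PANK2-AS1 at −0.82 without the same library (0.0761), CCDC18-AS1 at −0.99 without SMARCB1 Dox replicate 1 (0.0779) and TMEM51-AS1 at −0.89 without SMARCB1 DMSO replicate 2 (0.0527). The smallest called fall was that of FGD5-AS1, from 246 and 248 to 200 and 209 CPM (−0.27, edgeR adjusted p = 0.0232). FGD5-AS1 was called in 5 of the 8 fits that left out 1 library and was at −0.24 without SMARCB1 Dox replicate 1. GFP DMSO had 196.7 and 182.5 CPM of it, and the difference between its Dox effects was not called (edgeR adjusted p = 0.257).

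Only 7 RNAs rose, most of them at low levels. CCDC144NL-AS1 had 0.377 and 0.303 CPM in SMARCB1 DMSO and 1.74 and 0.744 in SMARCB1 Dox, a log2 fold change of 1.87 ± 0.40 (edgeR adjusted p = 0.00268). Its Dox libraries lay above the DMSO libraries but far from each other, and without SMARCB1 Dox replicate 1 the value was 1.13 (edgeR adjusted p = 0.115). CARD8-AS1, beside the inflammasome gene CARD8, had 0.720 and 0.667 against 2.02 and 2.06 CPM, or 1.55 ± 0.36 (edgeR adjusted p = 0.00495), and its partner was not called, at −0.27. Over the 8 fits that left out 1 library, the change of CARD8-AS1 in the GFP line was also upward, between 0.16 and 1.09. The difference between its Dox effects in the lines, 0.46 to 1.4 in those fits, was not called. BCAN-AS2, FAM131B-AS2, GOLGA4-AS1, LOXL1-AS1 and NOP14-AS1 rose by 0.62, 0.60, 0.54, 0.45 and 0.39 on the log2 scale.

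Each of these 5 smaller rises lost its call without at least 1 library. Without SMARCB1 DMSO replicate 1, BCAN-AS2 was at 0.33 (edgeR adjusted p = 0.329), GOLGA4-AS1 at 0.31 (0.391), LOXL1-AS1 at 0.40 (0.0745) and NOP14-AS1 at 0.33 (0.217). Without SMARCB1 Dox replicate 1, FAM131B-AS2 was at 0.42 (edgeR adjusted p = 0.282). NOP14-AS1 was called in 2 of the 8 fits that left out 1 library, BCAN-AS2, FAM131B-AS2 and GOLGA4-AS1 in 5 each and LOXL1-AS1 in 7.

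**Figure D2:**
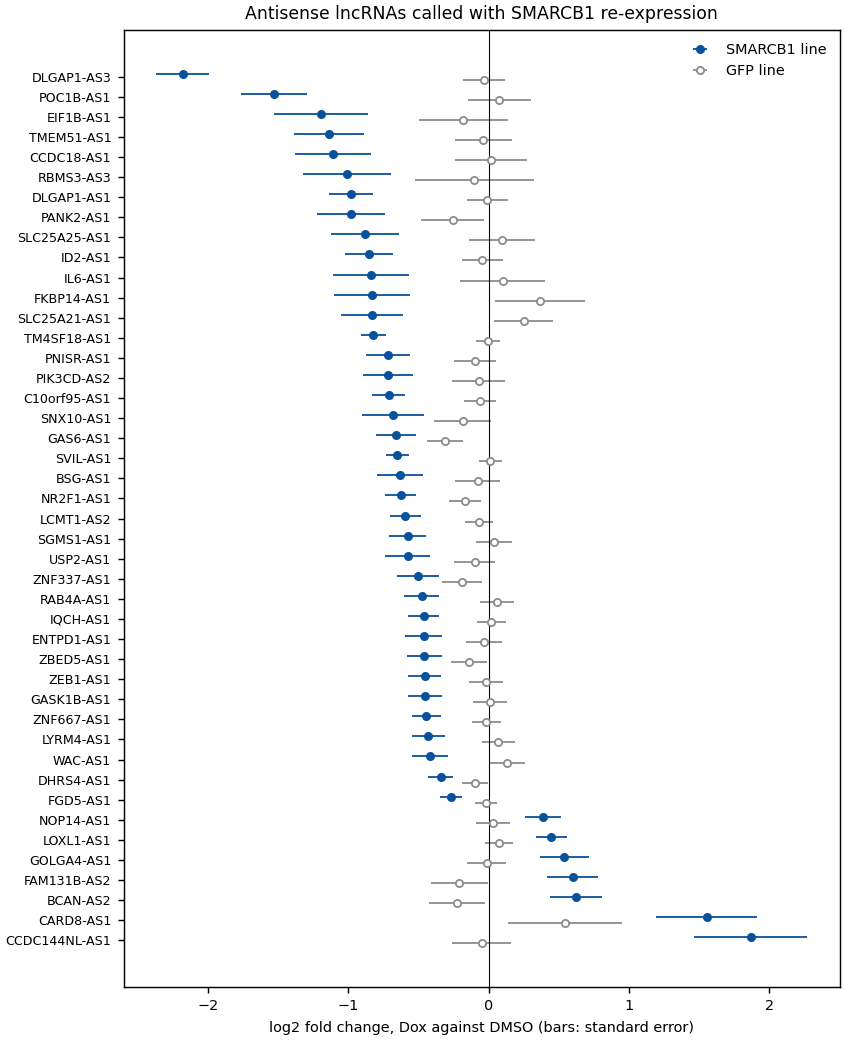
Log2 fold change of Dox over DMSO in the SMARCB1 line (filled) and in the GFP line (open) for 44 of the 45 antisense lncRNAs called in the SMARCB1 line, with bars of 1 standard error. DLGAP1-AS3 lies lowest at −2.18 in the SMARCB1 line and near 0, at −0.03, in the GFP line.

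By gene arrangement, 36 of the 194 RNAs with exonic overlap were called (18.6%, median −0.16) and 5 of the 26 with intronic overlap (19.2%, median −0.17). Of the 19 divergent ones, which have no overlap, 1 was called (5.26%, median 0.06). The share was 18.1% over the 248 and 14% over all genes, with 8.33% higher and 5.69% lower. Differences between these classes were not tested. Of the 158 with starts within 1000 bases of the partner, 3 rose and 23 fell (16.5% called). Of the 84 farther away, 3 rose and 15 fell (21.4%). Of the 33 with no exon base opposite another exon 1 rose and 4 fell (15.2%), with a median of −0.14. Exon GC content had a median of 47.0% in the 38 RNAs that fell, 53.5% in the 7 that rose and 47.7% over all genes, and after removal of a GC trend from each library 39 fell and 3 rose.

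To see whether partners moved along, each RNA was set beside the protein-coding gene of its name. A partner had been tested for 43 of the 45 called RNAs and was itself called in 10 cases, 8 in the same direction and 2 in the opposite. In the same direction went ID2-AS1 (−0.85) with ID2 (−0.50), an inhibitor of bHLH transcription factors, and NR2F1-AS1 (−0.63) with the nuclear receptor gene NR2F1 (−0.34). In the opposite direction went TM4SF18-AS1 (−0.82) with TM4SF18 (0.93) and SVIL-AS1 (−0.65) with SVIL (0.29). In 33 cases the RNA was called and the partner was not, and in 30 the reverse held. These pairs are from the SMARCB1 line alone. In the difference between the Dox effects of the lines, 9 called RNAs had a tested partner. Of these partners 1 was called, TM4SF18, in the opposite direction to its RNA, and 0 in the same direction. The differences of NR2F1 and SVIL were not called (edgeR adjusted p = 0.1265 and 0.1134).

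Over 223 pairs the log2 fold changes of RNA and partner had a Pearson r of 0.12 and a Spearman rho of 0.15, a description across genes that are no replicates and share libraries and overlapping exons. Within 1000 bases r was 0.22 and rho 0.23 (156 pairs), and farther apart 0.08 and −0.006 (67 pairs). The 218 tested partners had 21 higher and 19 lower, 18.3% in all. For the difference between the Dox effects of the lines, r was 0.09 and rho 0.10 over the 223 pairs.

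**Figure D3:**
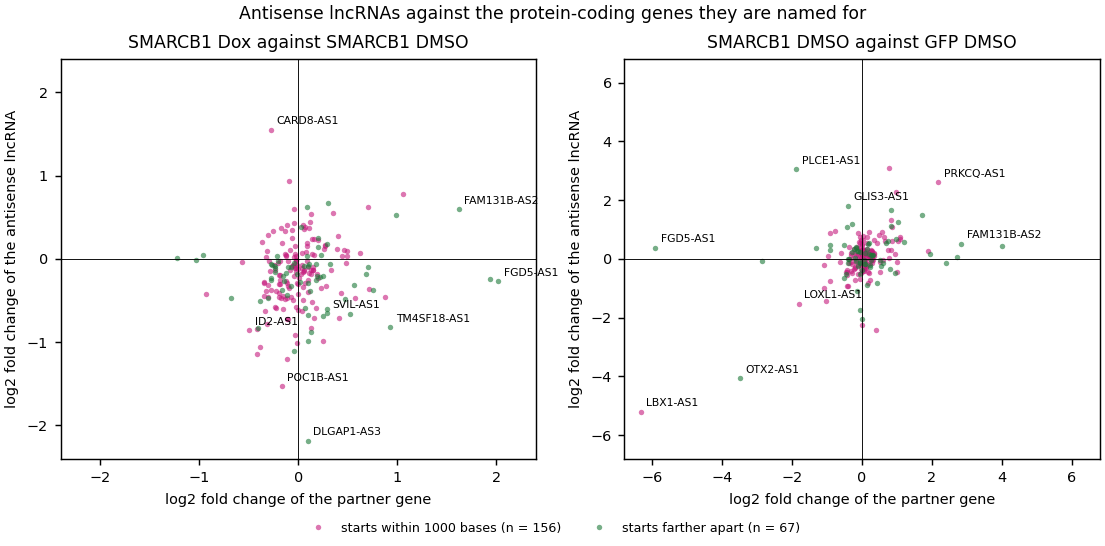
Log2 fold change of each antisense lncRNA (vertical) against that of its partner gene (horizontal) for SMARCB1 Dox against SMARCB1 DMSO (left) and SMARCB1 DMSO against GFP DMSO (right), with 156 pairs whose starts lie within 1000 bases and 67 farther apart. The left cloud shows little joint movement (Pearson r = 0.12, Spearman rho = 0.15). The right one has r = 0.41 and rho = 0.26, on wider axes.

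The control for Dox and a foreign protein was the line built to induce GFP, although its induction was not measured here. There 0 of the 248 RNAs were called, as were 0% of all genes, by edgeR and by DESeq2. At an unadjusted p under 0.05 edgeR gave 11 RNAs and DESeq2 4. The smallest unadjusted p belonged to TIRAP-AS1 (−0.59), THBS2-AS1 (0.63) and ARRDC1-AS1 (0.33), each with an edgeR adjusted p of 1. The median log2 fold change was −0.05, as for the other lncRNAs at 1 CPM or more (−0.05), against 0.004 over all genes.

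A call in one line and none in the other does not show that the lines differ, so a test was made of the Dox effect in SMARCB1 cells minus that in GFP cells. It passed for 10 RNAs, 9 with a lower and 1 with a higher effect in the SMARCB1 line, which is 4.03% against 4.71% of all genes (3.07% higher and 1.64% lower). The share of called RNAs was thus near that of all genes. The median difference was −0.08 over the 248 RNAs and −0.007 over all genes. Scaling by library totals gave 6 lower and 4 higher.

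The differences were −2.15 ± 0.24 for DLGAP1-AS3, −1.61 ± 0.33 for POC1B-AS1, −0.97 ± 0.21 for DLGAP1-AS1, −0.82 ± 0.13 for TM4SF18-AS1 and −0.66 ± 0.11 for SVIL-AS1 (log2, SE), at edgeR adjusted p between 1.31e-05 and 0.0082. In the GFP line SVIL-AS1 had 114 and 106 CPM with DMSO and 113 and 109 with Dox. POC1B-AS1 had 2.34 and 2.24 against 2.57 and 2.27 CPM there. In both RNAs the GFP groups overlapped.

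ID2-AS1 (−0.81), C10orf95-AS1 (−0.65), SLC25A21-AS1 (−1.08) and LCMT1-AS2 (−0.52) passed with edgeR adjusted p between 0.0206 and 0.0441. LCMT1-AS2 had 25.4 and 26.8 CPM in SMARCB1 DMSO and 14.7 and 19.9 in SMARCB1 Dox, far below the 103 and 112 CPM of GFP DMSO. The RNA with a higher effect was CCDC144NL-AS1, at 1.92 ± 0.46 (edgeR adjusted p = 0.015).

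Of the 10, only DLGAP1-AS3, POC1B-AS1, TM4SF18-AS1 and SVIL-AS1 were called in each of the 8 fits that left out 1 library. DLGAP1-AS1 was lost without GFP Dox replicate 2 (edgeR adjusted p = 0.0601) and CCDC144NL-AS1 was called in 5 of the 8 fits, at 1.18 without SMARCB1 Dox replicate 1 (edgeR adjusted p = 0.216). C10orf95-AS1 was called in 3 of the 8, ID2-AS1 and LCMT1-AS2 in 2 each and SLC25A21-AS1 in 1, with the highest adjusted p at 0.155, 0.241, 0.274 and 0.208. Without SMARCB1 Dox replicate 1, the difference was −0.53 for ID2-AS1 and −0.32 for LCMT1-AS2. The count was 5 without SMARCB1 Dox replicate 1 or GFP Dox replicate 1, 6 without GFP Dox replicate 2 and 16 without SMARCB1 Dox replicate 2.

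**Figure D4:**
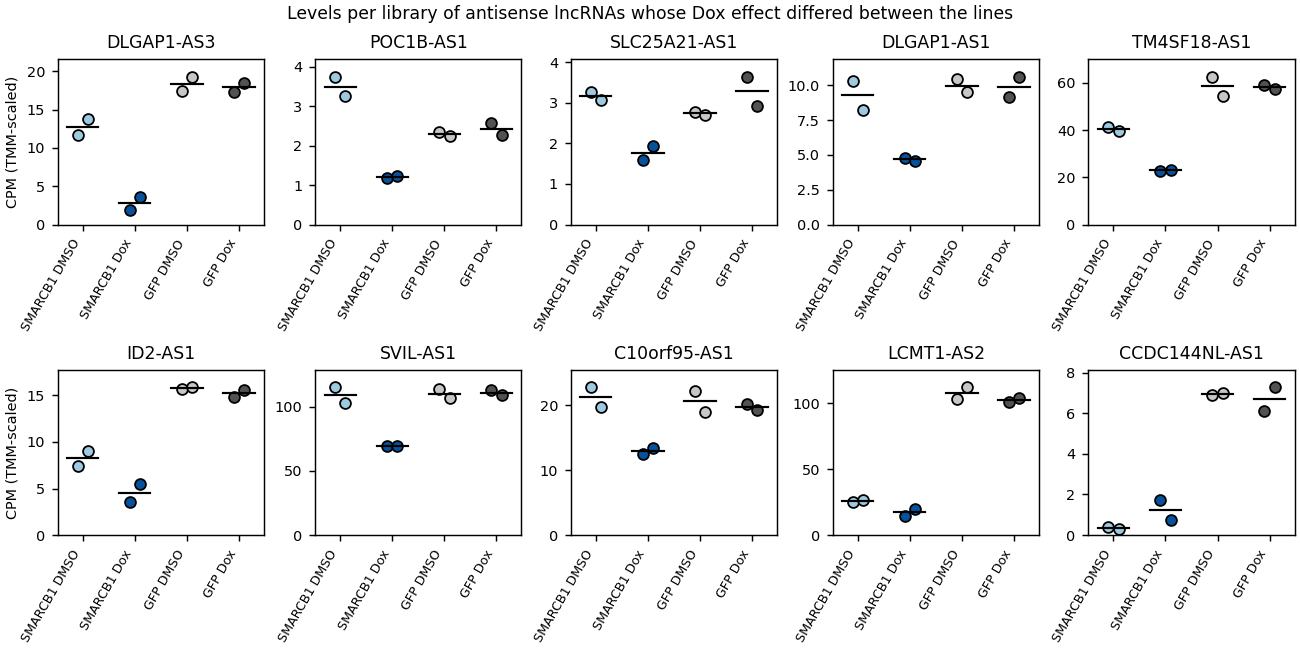
CPM (TMM-scaled, axes from 0) of the 10 antisense lncRNAs called in the difference between the Dox effects, with 1 point per library and a bar at the mean of each group. In 9 panels the SMARCB1 Dox points are below the SMARCB1 DMSO points while the GFP groups differ less, and CCDC144NL-AS1 shows the reverse.

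Before induction the derivatives already differed in many antisense RNAs. In SMARCB1 DMSO against GFP DMSO 71 were called, 28.6% against 32% of all genes, with 43 higher and 28 lower in the SMARCB1 line. Scaling by library totals moved the median of all genes from 0.01 to −0.10 and turned this split to 33 higher and 34 lower, so no direction for the RNAs as a whole is given. An RNA high in 1 derivative could reach the mean of 1 CPM through that derivative alone and then had to differ. Of the 208 RNAs at 1 CPM or more in every group, 26% were called, 34 higher and 20 lower. That split is for the main scaling only, so no direction is given for these RNAs either.

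FLG-AS1 (chr1:152168125-152445456, plus strand), which runs through the filaggrin locus, was read in one derivative alone. The SMARCB1 line had 13.3 and 15.8 CPM with DMSO, 14.3 and 16.1 with Dox, and the 4 GFP libraries had 0 reads. With 910 reads against 0 in the DMSO groups it was at least 352-fold higher in the SMARCB1 line, with a floor of 3 counts over the group. Dox left it within the spread of the replicates (0.06 ± 0.14).

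Among RNAs higher in the SMARCB1 line were ZFHX4-AS1, PLCE1-AS1, HOXB-AS3, PRKCQ-AS1, RBMS3-AS3, GLIS3-AS1 and FKBP14-AS1, with log2 differences of 3.10, 3.06, 3.06, 2.61, 2.27, 1.81 and 1.67. HOXB-AS3, from the cluster of HOXB patterning genes, had 6.04 and 4.91 CPM in SMARCB1 DMSO and 0.681 and 0.625 in GFP DMSO. PLCE1-AS1 had 11.5 and 9.34 against 1.07 and 1.41 CPM, while its partner PLCE1, a phospholipase gene, was lower (−1.89). Neither RNA overlapped between the groups.

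LBX1-AS1, PYDC2-AS1, CCDC144NL-AS1, OTX2-AS1, KHDC1-AS1, GOLGA4-AS1, LCMT1-AS2 and DLGAP1-AS4 were lower, at −5.19, −4.35, −4.34, −4.06, −2.43, −2.27, −2.05 and −1.73. LBX1-AS1 had 5 and 0 reads in SMARCB1 DMSO and 87 and 137 in GFP DMSO, so the size of its difference is uncertain, at −4.14 without SMARCB1 DMSO replicate 2 and, with the library of 0 reads alone left in that group, −9.75, which is no bound. LBX1, a homeobox gene, was also lower (−6.33). OTX2-AS1 had 0.686 and 0.576 against 10.4 and 10.7 CPM, and OTX2, a homeobox gene of the forebrain, was lower too (−3.48).

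**Figure D5:**
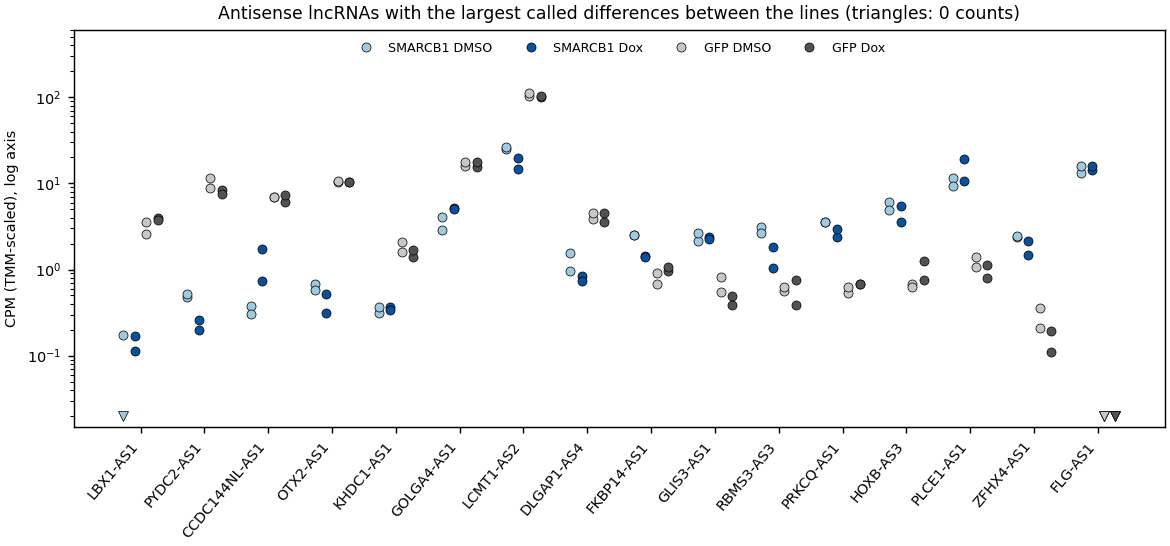
CPM (TMM-scaled, log axis) per library of the 16 antisense lncRNAs with the largest called differences between SMARCB1 DMSO and GFP DMSO, with triangles for 0 counts. All points of 1 derivative stay on the same side of those of the other, with and without Dox, as for FLG-AS1 with 0 counts in all 4 GFP libraries.

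More genes were called in this comparison, 40.4% of the 218 tested partners against 18.3% with SMARCB1, so counts of pairs are not set against each other. Of 61 called RNAs with a tested partner, 33 partners were called, 24 in the same direction, among them LBX1, OTX2 and LOXL1, and 9 in the opposite, among them PLCE1, GLIS3 and FGD5. Over the 223 pairs the Pearson r was 0.41 and the Spearman rho 0.26. Within 1000 bases r was 0.66 and rho 0.35 (156 pairs), and farther apart 0.17 and 0.08 (67 pairs). This comparison and that of SMARCB1 Dox share the SMARCB1 DMSO libraries.

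Of 48 listed antisense RNAs of developmental transcription factor loci, 10 were among the 248. With SMARCB1, NR2F1-AS1 and ZEB1-AS1 fell (−0.63 and −0.46) and 0 rose, which is 20% called against 18.1% of the 248 and 14% of all genes. The median over the 10 was −0.34, against −0.14 over the 248 and −0.004 over all genes. ZEB1-AS1 lost its call without SMARCB1 DMSO replicate 1 (−0.33, edgeR adjusted p = 0.158) or SMARCB1 Dox replicate 2 (−0.36, 0.11). Between the derivatives 4 were called (40%, against 32% of all genes), HOXB-AS3, NR2F1-AS1 and ZEB1-AS1 higher and OTX2-AS1 lower in the SMARCB1 line. The list was not complete, so these shares hold for the listed RNAs only. HOXA10-AS, LBX1-AS1, GBX2-AS1, FOXD2-AS1, ZFHX4-AS1 and ID2-AS1 lay outside it and were also called between the derivatives, and ID2-AS1 fell with SMARCB1. The 7 antisense RNAs of the HOX clusters were not called with SMARCB1.

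Of 31 listed antisense RNAs with published functions, 17 were among the 248. With SMARCB1, LOXL1-AS1 rose and FGD5-AS1 fell, which is 11.8% called against 14% of all genes, with a median of −0.08 over the 17. Between the derivatives 5 were higher and 3 lower, 47.1% against 32% of all genes, including BACE1-AS, antisense to the beta-secretase gene, at −0.83, and PSMA3-AS1 at 0.55. Both lists had 0 calls in the GFP line and in the difference between the Dox effects.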

How the data were processed

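RNA libraries of G401 derivatives with inducible SMARCB1 or GFP, treated with Dox or DMSO, were analysed in 4 groups of 2, named after the sample titles. Raw counts of reads for each gene were deposited. Per the study's methods and the submitters' processing notes, the authors aligned reads with STAR to hg38 and counted them over GENCODE v42 exons with HTSeq in intersection-strict mode. Versions and strand option were not given in the sources used here. The labels name a ribosome profiling kit and the methods a stranded RNA kit, so the library chemistry was uncertain. The 5 entries naming no gene held 27% to 29.3% of reads and were left out. The ribosome profiling libraries were not analysed here.

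Biotypes, positions and exons came from GENCODE v44 (62625 of 69215 genes matched) and promoters from RefSeq. The members and lists were chosen with earlier results of these data known. Counts were tested with edgeR (4.0.16, R 4.3.3; TMM, default filter, 15931 genes, quasi-likelihood fit of all 8 libraries), with Benjamini-Hochberg adjustment over all genes and calls at 0.05. Levels are TMM-scaled CPM, and standard errors were derived from the fold change and F statistic. Alternatives were DESeq2 (1.42.0), library totals, no filter, a replicate block, only the 4 libraries compared, leaving out each library and, added after seeing the data, removal of a GC trend (loess span 0.3). The steps were tested on simulated counts. Named RNAs were the called ones with the largest fold changes (up to 10 per direction for SMARCB1 Dox, 8 for the DMSO groups, 10 for the difference), DLGAP1-AS3, FLG-AS1, the 8 with most reads, the 3 nearest the limit on each side, called list members, the 3 smallest p in the GFP line and the partners. DLGAP1-AS2 and those named for the share of their direction with a partner were chosen after their values were seen. The values of 1 called RNA are not reported here.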

Additional observations from a re-analysis of the deposited data

Results flagged for a closer look

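For 10 antisense lncRNAs a difference in the effect of Dox between the lines was called (edgeR's test of the difference, Benjamini-Hochberg adjusted p under 0.05). This was 4.03% of the 248, near the 4.71% of all genes. Several of these calls were lost when a single library was left out, as given above. The log2 Dox effect in the SMARCB1 line minus that in the GFP line was −2.15 for DLGAP1-AS3, −1.61 for POC1B-AS1, −1.08 for SLC25A21-AS1, −0.97 for DLGAP1-AS1, −0.82 for TM4SF18-AS1, −0.81 for ID2-AS1, −0.66 for SVIL-AS1, −0.65 for C10orf95-AS1, −0.52 for LCMT1-AS2 and 1.92 for CCDC144NL-AS1. Groups of 2 libraries are too small for a search for outlying libraries.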

How the results depend on the processing

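The count of RNAs called with SMARCB1 was 45, and 38 with DESeq2, 38 with library totals, 50 without the filter, 42 after removal of the GC trend and 38 with only the 4 libraries compared. Leaving out 1 library gave 22 to 44, with 11 of the 45 called in all 8 such fits. The difference between the Dox effects had 10 calls, 9 with DESeq2, 15 without the filter and 5 to 16 with 1 library left out. The DMSO groups had 71 calls, 61 with DESeq2 and 51 to 72 with 1 library left out. The GFP line had 0 under each setting. The cause of these shifts was not tested. Replicate numbers were shared across groups. The deviations of same-numbered libraries correlated at 0.0903 in the GFP line and 0.148 in the SMARCB1 line, and they were not taken as pairs. A low correlation over genes, many with low counts, cannot exclude a shared batch. With the replicate block the counts were 55, 0, 22 and 78 (SMARCB1 line, GFP line, difference, DMSO groups). Over all genes they were 3149, 0, 1282 and 5977 with the block, against 2234, 0, 750 and 5105 without it. All called RNAs (45, 10 and 71) kept their sign in every setting. With 2 libraries a group, and low counts for many RNAs, small changes could not be resolved.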
